A study of Homo sapiens with 9 samples.

Results

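The human OAS family was followed in TE13 cells, an esophageal squamous cell carcinoma (ESCC) line, after knockdown of the long noncoding RNA PARylator (LINC00885). Its members were the rows of the deposited table carrying the symbols OAS1, OAS2, OAS3 or OASL, with 1 row found for each symbol, which gave 4 genes of the 60605 in the table, of which 21397 were tested. The TE13 cultures received a control siRNA or 1 of a pair of PARylator siRNAs (siRNA.1, siRNA.2), so all 3 conditions share transfection with an siRNA. The paper lists sequences for both PARylator siRNAs and none for the control siRNA. How alike the control duplex was to them in length and sequence is therefore not known here. Each condition had 3 libraries of poly(A)+ RNA, described by the series as biological replicates. The time between transfection and harvest and the culture behind each library are not given in the sources used here, and the transcriptome of a single cell line was measured.

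OAS proteins are sensors of double-stranded RNA that interferon induces. On binding such RNA, OAS1, OAS2 and OAS3 join ATP into short 2′-5′-linked oligoadenylates (2-5A), a second messenger of the antiviral response. OASL keeps the fold of the family without making 2-5A, carries ubiquitin-like domains and acts with the RNA sensor RIG-I. In epithelium, these genes are known as part of the antiviral state set by type I and type III interferon.

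The 9 libraries held between 15337917 and 22559998 counts on genes, siRNA.2 being the deepest condition (19213164 to 22559998), and TMM scaling factors stayed between 0.989 and 1.02. All 10 squamous and all 4 general epithelial marker genes were above 1 FPKM (fragments scaled by gene length and by library total) on average in every condition. The summed squamous level was nevertheless lower with both siRNAs, without overlap. It was 520.3 to 544 FPKM in control libraries, 425 to 459 under siRNA.1 and 448 to 466 under siRNA.2. KRT5, a basal keratin, went from 142 to 40.0 and 55.8 FPKM. Other members of the list went both ways. KRT6A went from 78.7 to 102 and 118 FPKM and PERP from 66.4 to 86.9 and 84.9 FPKM. DSG3 was also higher with both siRNAs. KRT17, TP63, SOX2, DSC3 and TRIM29 were lower with both, and KRT14 was higher only with siRNA.1. The general epithelial sum was higher without overlap, at 953 to 980.3, 1126 to 1206 and 996 to 1030.0 FPKM. Within it EPCAM and KRT18 were higher with both siRNAs and KRT8 only with siRNA.1, while CDH1 went from 133 to 123 and 93.3 FPKM. Of 10 blood cell markers, 1 was above 1 FPKM under control siRNA and 3 with each PARylator siRNA. Their summed level was 5.54 to 6.63 FPKM in control libraries, 7.89 to 8.81 under siRNA.1 and 7.41 to 8.73 under siRNA.2, and the B cell marker MS4A1 was at 0 in every library. Within that list LYZ went from 0.317 to 2.79 and 3.08 FPKM, while LAPTM5 went from 4.95 to 3.00 and 2.40 FPKM. Mitochondrially encoded genes took 7.46% to 7.66% of counts under control siRNA, 4.99% to 5.06% under siRNA.1 and 5.54% to 5.56% under siRNA.2. The part of these shifts in the OAS values was not tested, and in bulk RNA a change in the number of expressing cells cannot be told apart from a change per cell. LINC00885 itself was near the limit of counting, with 6, 7 and 12 reads in the control libraries, 4, 5 and 2 under siRNA.1 and 2, 0 and 4 under siRNA.2. Its log2 fold change was −1.21 (SE 0.95, edgeR adjusted p = 0.376) under siRNA.1 and −2.33 (SE 1.01, edgeR adjusted p = 0.0659) under siRNA.2, so neither reduction passed the test at this depth. Every siRNA library lay below every control library, beside 19.5% and 19.4% of all tested genes lower without overlap under siRNA.1 and siRNA.2. The paper reports the siRNA knockdown by qPCR, a measurement that is not part of these data.

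OAS1, OAS3 and OAS2 lie side by side on the plus strand of chromosome 12 (GRCh38). OAS1 (ENSG00000089127) spans 112905856 to 112933219, OAS3 (ENSG00000111331) spans 112938051 to 112976460 and OAS2 (ENSG00000111335) spans 112978395 to 113011723, with gaps of 4.831 kb and 1.934 kb between them. OASL (ENSG00000135114) sits on the minus strand at 121017763 to 121039242, 8006 kb beyond OAS2. An unnamed minus-strand gene (ENSG00000257452) overlaps OAS1, OAS3 and OAS2, and it had 0 counts in every library. Whether the counting used strand is not stated.

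The stretches of promoter shown here carry letters of the interferon-stimulated response element (ISRE), the promoter element through which type I and type III interferon act, or the longest run of bases that the OAS1 and OAS3 windows share. RefSeq windows (GRCh38.p14) of 250 bases before to 50 after the start were found for OAS1 and OAS3. That start is the RefSeq one, which lies inside the gene span given above and not at its first base. Capitals mark the ISRE core (GAAA, any 2 bases, GAAA) or the shared run AAACGAAACCA (11 bases), which was derived from these windows after they were read.
OAS1, plus strand, chr12:112906937-112906966: cttctgaggAAACGAAACCAacagcagtcc
OAS3 upstream stretch, plus strand, chr12:112938321-112938350: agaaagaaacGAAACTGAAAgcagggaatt
OAS3 proximal stretch, plus strand, chr12:112938449-112938478: gagagccgggcggGAAAACGAAACCAgaaa

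Both strands were searched. The OAS3 window held the ISRE core at −143 to −134 and again at −12 to −3 from the start, the latter overlapping the shared run at −10 to +1. The OAS1 window did not hold the ISRE core as spelled, but held the shared run at −16 to −6. With the base before it, that run reads GAAACGAAA, in which 1 base parts the GAAA units in place of the 2 searched for. That spacing was not searched, so the miss does not show that OAS1 lacks an ISRE. It also held the gamma-activated sequence (GAS) letters TTCNNNGAA at −168 to −160, a motif that reads the same on both strands. Over 35116 promoter windows of this length, 3.57% held the ISRE core, 7.66% held GAS and 0.0142% (5 windows, those of OAS1 and OAS3 included) held the shared run. Of 13 other interferon-induced genes listed for comparison, 10 had a window, and 10 of those 10 held the ISRE core, 2 held GAS and none held the shared run. A match describes the letters in the window and shows no binding.

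All 4 OAS genes were higher with both PARylator siRNAs, by 2.33- to 5.18-fold, and in each gene every siRNA library lay above every control library. The share of all tested genes called higher was 15% under siRNA.1 and 15.8% under siRNA.2, and 11.1% were called higher with both. The share that rose without overlap was 19% under siRNA.1 and 20.4% under siRNA.2. The middle of the 4 log2 fold changes was 1.86 under siRNA.1 and 1.70 under siRNA.2, beside −0.00053 and 0.0040 over all tested genes. Both comparisons share the 3 control libraries.

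OAS1, the smallest enzyme of the family, showed the largest fold change of the 4. Its reads numbered 729, 757 and 808 in the control libraries, 4406, 3844 and 4323 under siRNA.1, and 4417, 4113 and 4527 under siRNA.2. Its level was 3.65, 3.73 and 3.47 FPKM under control siRNA, 19.05, 19.20 and 19.02 FPKM under siRNA.1 and 17.13, 16.44 and 15.41 FPKM under siRNA.2. The control libraries were low and close together, and the siRNA.1 libraries were the highest, without overlap with those of siRNA.2. Its log2 fold change was 2.37 (SE 0.054, 5.18-fold) under siRNA.1 and 2.16 (SE 0.054, 4.48-fold) under siRNA.2, and the −log10 of the edgeR adjusted p was 419 and 350.

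OAS3, the largest enzyme, which prefers long double-stranded RNA, had the highest level and the smallest fold change. Its FPKM was 30.02, 27.04 and 25.86 under control siRNA, 67.35, 73.74 and 69.28 under siRNA.1 and 64.99, 64.61 and 64.81 under siRNA.2. The lowest siRNA library (64.61 FPKM) stood above the highest control library (30.02 FPKM), and the siRNA.2 libraries were nearly equal to each other. The log2 fold change was 1.32 (SE 0.036, 2.49-fold, edgeR adjusted p = 4.28e-295) under siRNA.1 and 1.22 (SE 0.035, 2.33-fold, edgeR adjusted p = 1.83e-254) under siRNA.2. These values rested on 7607 to 8353 reads per control library and 20458 to 26385 per siRNA library.

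OAS2, the middle-sized enzyme, rose from 14.95, 14.83 and 13.78 FPKM under control siRNA to 53.32, 58.64 and 56.35 FPKM under siRNA.1 and 50.95, 49.05 and 50.42 FPKM under siRNA.2. The 3 conditions did not overlap, and siRNA.1 was the highest. Its log2 fold change was 1.92 (SE 0.042, 3.79-fold) under siRNA.1 and 1.78 (SE 0.042, 3.43-fold) under siRNA.2, and the −log10 of the edgeR adjusted p was 451 and 389.

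OASL, the member without 2-5A synthesis, rose from 5.27, 5.42 and 4.76 FPKM under control siRNA to 17.66, 18.69 and 18.29 FPKM under siRNA.1 and 15.92, 16.12 and 15.58 FPKM under siRNA.2. Here too the conditions were apart from each other, siRNA.1 being the highest. Its log2 fold change was 1.80 (SE 0.064, 3.48-fold, edgeR adjusted p = 1.18e-168) under siRNA.1 and 1.61 (SE 0.064, 3.06-fold, edgeR adjusted p = 5.27e-137) under siRNA.2. Its folds were close to those of OAS2, whose locus lies far from it.

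With limma on log2(FPKM + 0.1), the adjusted p was larger, and over 11 other settings its highest value for any of the 4 genes was 9.41e-07 under siRNA.1 and 1.60e-06 under siRNA.2, both for OAS3.

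**Figure D1:**
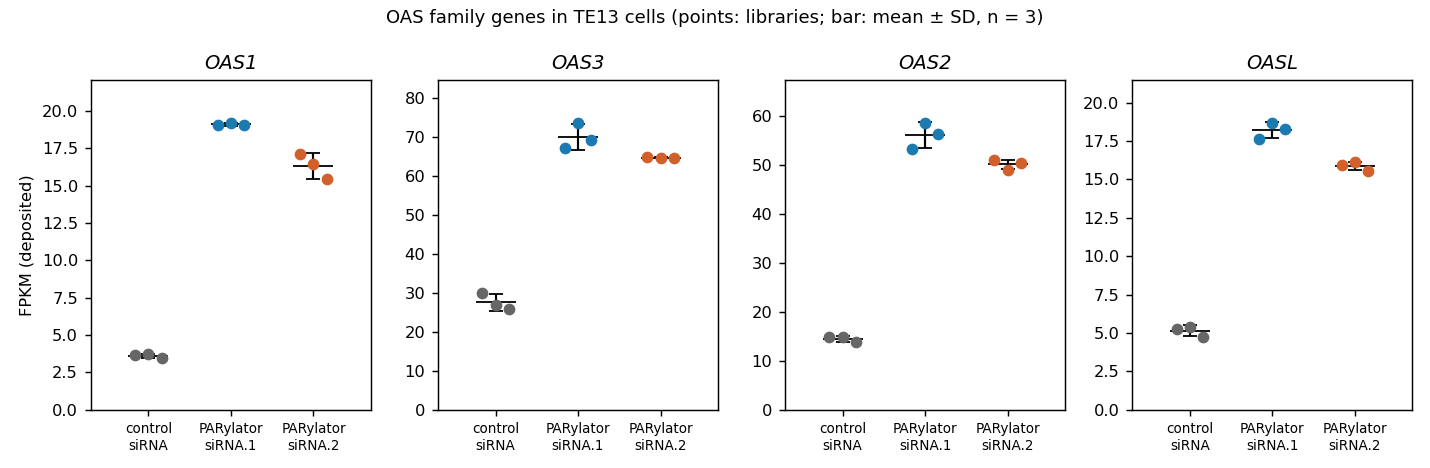
Deposited FPKM of OAS1, OAS3, OAS2 and OASL (vertical axes from 0, a scale for each gene) in the 3 libraries of each condition; points are libraries and bars the mean ± SD (n = 3). In all 4 genes the control libraries lie lowest, and the siRNA.2 libraries lie between them and the siRNA.1 libraries.

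The siRNAs differed from each other by far less than either differed from control siRNA, and all 4 genes were lower under siRNA.2 than under siRNA.1. Of all tested genes, 6.07% were called lower in this direct comparison and 12% were lower without overlap. The log2 difference was −0.21 (SE 0.047, edgeR adjusted p = 0.000223) for OAS1, −0.15 (SE 0.039, edgeR adjusted p = 0.00336) for OAS2, −0.18 (SE 0.057, edgeR adjusted p = 0.0159) for OASL and −0.10 (SE 0.035, edgeR adjusted p = 0.0428) for OAS3, with 3 of 3 siRNA.2 libraries below the lowest siRNA.1 library in each gene. In linear terms OAS1 fell by 13.6% and OAS3 fell by 6.52%. The OAS1 call was kept under all 20 other settings, including each library left out in turn. The call of OAS3 was lost under 12 of the 20, that of OASL under 6 and that of OAS2 under 4. Without siRNA.1 replicate 2, which held the highest OAS3, OAS2 and OASL levels, the differences were −0.06 for OAS3 (edgeR adjusted p = 0.345), −0.12 for OAS2 (edgeR adjusted p = 0.0569) and −0.17 for OASL (edgeR adjusted p = 0.0667).

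The members rose by unequal folds, and their shares of the summed OAS level are given here. Summed over the 4 genes, the level was 50.9 ± 3.01 FPKM (SD, n = 3) under control siRNA, 163.5 ± 6.47 under siRNA.1 (3.21-fold) and 147.1 ± 1.60 under siRNA.2 (2.89-fold). OAS3 made up 54.2% ± 1.37 of that sum under control siRNA and 42.9% ± 0.40 and 44.04% ± 0.37 under siRNA.1 and siRNA.2, with no overlap between siRNA and control libraries. OAS1 went from 7.11% ± 0.29 to 11.7% ± 0.41 and 11.1% ± 0.50, and OAS2 from 28.5% ± 0.70 to 34.3% ± 0.37 and 34.1% ± 0.48. OASL stayed nearer its control share of 10.1% ± 0.45, at 11.1% ± 0.14 and 10.8% ± 0.21. On this scale OAS2 gained more of the sum than OAS1, and the reverse held when counts were divided by the length of the canonical transcript in place of the deposited exonic length. By canonical length, OAS1 made up 19.3% ± 0.72 under control siRNA, 29.6% ± 0.84 under siRNA.1 and 28.3% ± 1.03 under siRNA.2, and OAS2 made up 23.6% ± 0.50, 26.4% ± 0.45 and 26.5% ± 0.53. In a two-sided exact permutation test each of the 8 shifts against control by deposited length gave p = 0.10, the smallest that 3 against 3 libraries allows (0.133 after Benjamini-Hochberg adjustment over 12 comparisons), so none could pass the threshold.

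The order of the members depended on the length by which counts were divided. Per kilobase of the deposited exonic length, which joins the exons of all annotated transcripts, the order of levels under control siRNA was OAS3 (27.6 FPKM), OAS2 (14.5), OASL (5.15) and OAS1 (3.62), with no overlap between neighbours. Under siRNA.1, OAS1 (19.1 FPKM) was just above OASL (18.2), and under siRNA.2 the libraries of OAS1 (15.41 to 17.13 FPKM) and OASL (15.58 to 16.12 FPKM) overlapped. OAS1 has 33 transcripts in GENCODE release 44, and its deposited length of 13021 bases is 7.98 times that of its canonical transcript (1631 bases, 6 exons, 400 encoded residues). The ratio was 2.73 for OAS3 (6599 bases, 1087 residues), 2.43 for OAS2 (4622 bases, 687 residues) and 1.93 for OASL (3270 bases, 514 residues).

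Per kilobase of the canonical transcript, a scale chosen after the deposited lengths were seen, OAS1 stood at 28.9 ± 1.08 FPKM under control siRNA, 152.4 ± 0.79 under siRNA.1 and 130.4 ± 6.92 under siRNA.2, above OASL in every condition (9.95 ± 0.67, 35.2 ± 1.01 and 30.7 ± 0.53). OAS3 remained the highest, at 75.6 ± 5.87, 191.8 ± 8.96 and 177.2 ± 0.52 FPKM. OAS2 was at 35.3 ± 1.57, 136.4 ± 6.496 and 121.9 ± 2.38 FPKM on this scale. OAS1 was below OAS2 under control siRNA and above it under siRNA.1, in both cases without overlap, while under siRNA.2 their libraries overlapped (123.0 to 136.8 FPKM for OAS1 and 119.2 to 123.8 for OAS2). The isoforms that the cells used were not measured, and either length leaves the fold changes of a gene between conditions as they are.

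**Figure D2:**
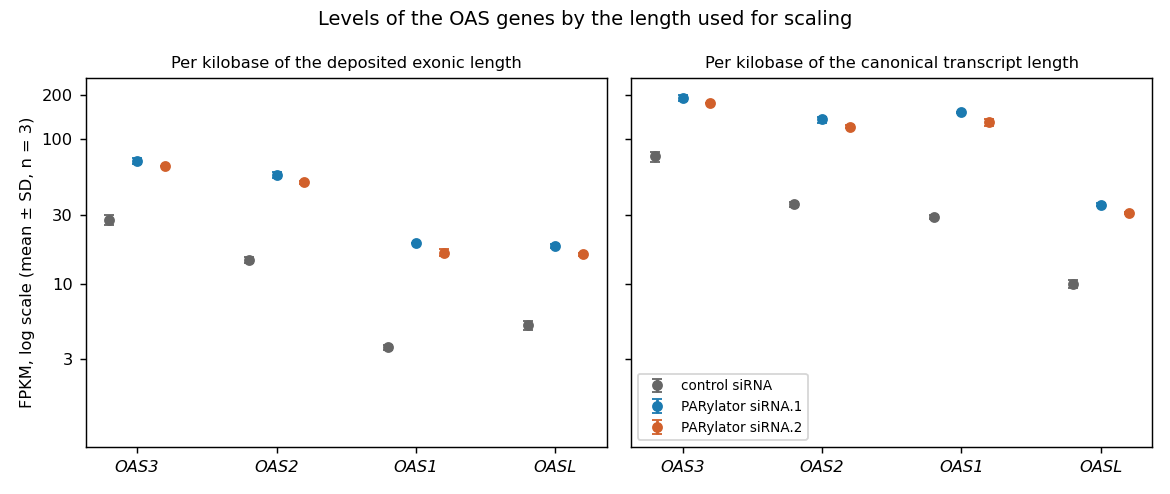
Levels of OAS3, OAS2, OAS1 and OASL (vertical axis: FPKM, log scale; points and bars: mean ± SD, n = 3) in the 3 conditions, scaled by the deposited exonic length at left and by the canonical transcript length at right. OAS1 under control siRNA stands at 3.62 FPKM at left and 28.9 FPKM at right, which moves it from below OASL to above it.

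Of 3 further genes of the 2-5A pathway, 1 was called lower under siRNA.1 and none was called under siRNA.2 by edgeR. ABCE1, a ribosome recycling factor, was at 36.1 ± 0.90 FPKM under control siRNA, 33.6 ± 0.49 under siRNA.1 and 36.4 ± 1.12 under siRNA.2. It was lower under siRNA.1 (log2 fold change −0.13, SE 0.046, edgeR adjusted p = 0.0195), with no overlap with control libraries and a call lost under 6 of 20 other settings, beside 15.2% of all tested genes called lower and 19.5% lower without overlap in that comparison. Its log2 fold change under siRNA.2 was 0.00 (95% interval −0.09 to 0.09, edgeR adjusted p = 1). PDE12, a phosphodiesterase that degrades 2-5A, had log2 fold changes of 0.07 (95% interval −0.07 to 0.22, edgeR adjusted p = 0.500) and 0.14 (95% interval −0.0016 to 0.28, edgeR adjusted p = 0.138). Its siRNA.2 libraries (5.61 to 5.70 FPKM) lay above the control libraries (5.04 to 5.19 FPKM), beside 20.4% of all tested genes higher without overlap. AKAP7, whose protein also holds a 2-5A phosphodiesterase fold, was at 0.64 to 0.99 FPKM in all libraries, with log2 fold changes of 0.05 (95% interval −0.41 to 0.50, edgeR adjusted p = 0.923) and 0.00 (95% interval −0.45 to 0.45, edgeR adjusted p = 1). Between siRNA.2 and siRNA.1, ABCE1 differed by 0.13 on the log2 scale (SE 0.046, edgeR adjusted p = 0.0410), beside 6.1% of all tested genes called higher in that comparison.

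**Figure D3:**
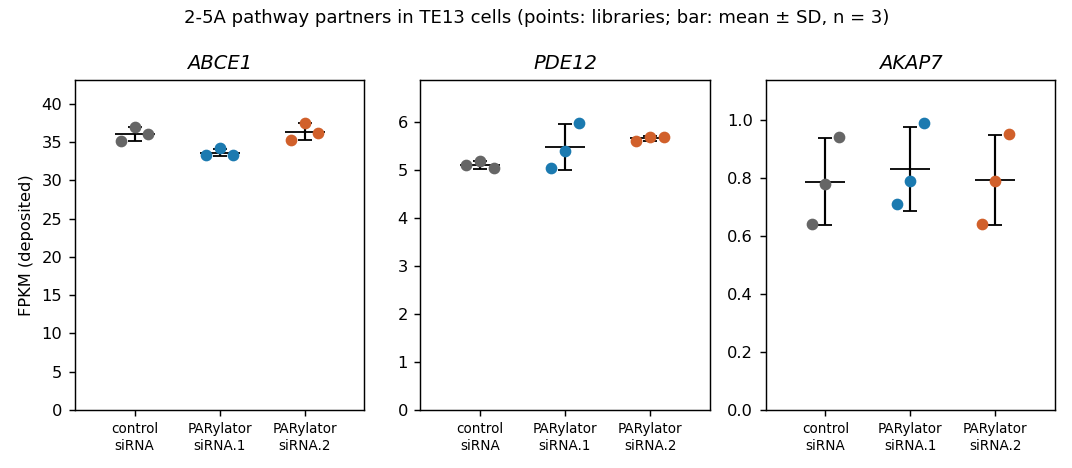
Deposited FPKM of ABCE1, PDE12 and AKAP7 (vertical axes from 0, a scale for each gene) by condition; points are libraries and bars the mean ± SD (n = 3). AKAP7 lies at 0.64 to 0.99 FPKM with the conditions overlapping, and ABCE1 at 33.6 FPKM under siRNA.1 against 36.1 FPKM under control siRNA.

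Other genes of the interferon pathway were read beside the family, from lists chosen with earlier results of these data known. Of all tested genes, 15% were called higher under siRNA.1 and 15.8% under siRNA.2. Of 6 interferon genes, 4 rose with each siRNA, and 2 (IFNE and IFNK) were not called. The type III interferon IFNL1 had 8, 3 and 8 reads in the control libraries. It rose by 3.01 (edgeR adjusted p = 2.35e-14) and 3.08 (edgeR adjusted p = 1.51e-15) on the log2 scale. IFNL3, with 5, 3 and 0 reads in the control libraries, rose by 3.84 and 4.08. IFNL1 and IFNL3 are named here after their values were seen. IFNL2, a type III interferon nearly identical in sequence to IFNL3 so that their counts are uncertain, had at most 1 read in any control library and 110 and 119 reads in all under siRNA.1 and siRNA.2, at least 11.8-fold and 10.5-fold higher when each control library is set to 3 counts. IFNB1, the type I interferon beta, had at most 2 reads per control library and 28 and 63 in all under siRNA.1 and siRNA.2, at least 3.00-fold and 5.55-fold higher, and it and IFNK are named here after their values were seen. IFNE had log2 fold changes of 0.18 (edgeR adjusted p = 0.749) and −0.08 (edgeR adjusted p = 0.905).

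Of 8 sensors of foreign nucleic acid, 6 were higher under siRNA.1, 1 was lower and 1 was not called, and under siRNA.2 6 were higher and 2 not called. The median log2 fold change was 0.58 and 0.56, below that of the OAS genes. ZBP1, a sensor of Z-form nucleic acid, rose most (log2 fold change 2.13 and 2.01), and ZC3HAV1, the antiviral protein ZAP that binds CpG-rich RNA, was lowest, at −0.31 (called) under siRNA.1 and −0.09 (not called) under siRNA.2. EIF2AK2, the kinase PKR that also binds double-stranded RNA, rose by 0.17 and 0.24 on the log2 scale. IFIH1 rose by 1.74 and 1.77, inside the range of the OAS genes. DDX58 (RIG-I) rose by 1.13 and 1.32, and DHX58 by 0.86 and 0.87. TLR3 was called higher only under siRNA.1 and CGAS only under siRNA.2. EIF2AK2, IFIH1, DDX58, DHX58, TLR3 and CGAS are named here after their values were seen.

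Among 8 receptors, kinases and transcription factors of interferon signalling, 2 were higher and 2 lower under siRNA.1, and 1 was higher and 4 lower under siRNA.2. STAT2, named here after its values were seen, rose by 0.33 and 0.22 on the log2 scale. Both rises were called (edgeR adjusted p = 4.59e-09 and 0.000235) and without overlap with control libraries. Over all tested genes, 11.1% were called higher with both, and 19% and 20.4% rose without overlap under siRNA.1 and siRNA.2. IRF9, a DNA-binding factor that interferon signalling uses, was highest under siRNA.1, at 0.50 (SE 0.11, edgeR adjusted p = 2.71e-05), and stood at 0.22 (SE 0.11, edgeR adjusted p = 0.110, not called) under siRNA.2. TYK2, a kinase of the type I receptor, fell by 0.42 and 0.47 on the log2 scale. IL10RB, a subunit of the type III receptor, fell by 0.42 and 0.58. The IL10RB call was lost under 9 of 20 other settings for siRNA.1 and under 3 of 20, all limma, for siRNA.2. TYK2 was apart from the control libraries under both siRNAs, and of all tested genes 15.1% were called lower and 19.4% were lower without overlap under siRNA.2, while 10.2% were called lower with both. IFNAR1, a type I receptor subunit, and JAK1, another kinase of that receptor, were called lower under siRNA.2 (−0.15 and −0.12). Neither was called under siRNA.1 (−0.09 and 0.09), and the siRNA.2 calls were lost under 9 and 12 of 20 other settings. Of 3 IRF factors none was higher, IRF1 was lower with both (−0.31 and −0.24), and IRF3 (0.11 and 0.08) and IRF7, which had at most 10 reads per library, were not called.

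All 13 other interferon-induced genes were higher with both siRNAs, with median log2 fold changes of 2.31 and 2.08, from 0.60 and 0.63 for BST2 (tetherin) to 3.66 and 3.42 for RSAD2 (viperin). The OAS genes lay inside that range. In the direct comparison, 8 of these 13 were lower under siRNA.2 than under siRNA.1, 1 was higher and 4 were not called (median −0.19, beside −0.16 for the OAS genes). Over all tested genes, 6.07% were called lower and 6.1% higher in that comparison.

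**Figure D4:**
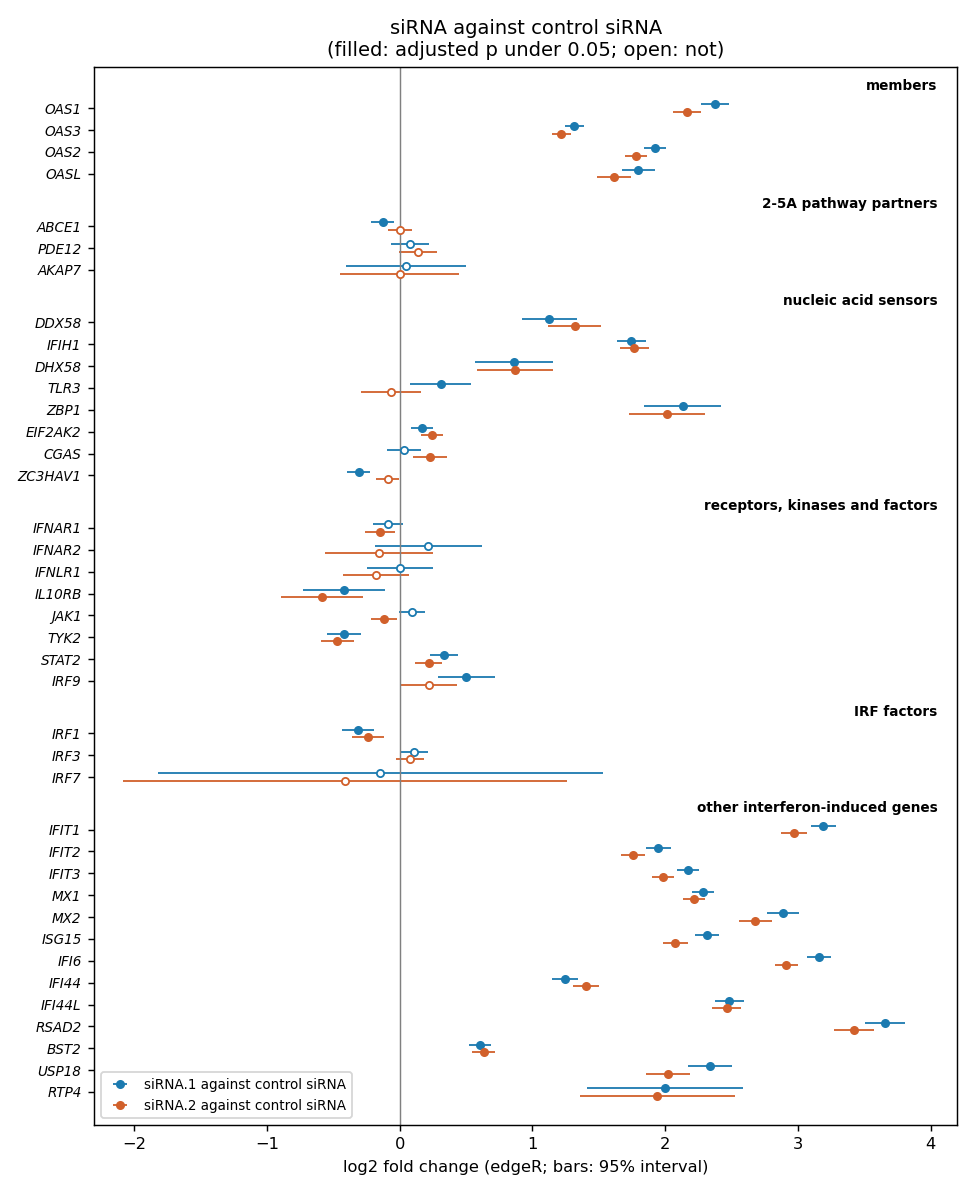
Log2 fold change against control siRNA (horizontal axis; bars 95% intervals) for the OAS genes, the 2-5A partners and 4 lists of interferon pathway genes, under siRNA.1 in blue and siRNA.2 in orange, filled where the adjusted p was under 0.05. The OAS genes sit between 1.22 and 2.37, the 3 partners between −0.13 and 0.14, and the 13 other interferon-induced genes between 0.60 and 3.66.

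The genes whose profile over the 9 libraries was most like that of an OAS gene were mostly other members and interferon-induced genes. Likeness was Pearson's r of log2(CPM + 1) against the 11867 genes averaging 1 FPKM or more, and since it follows the condition means it is given as a description. OAS1 was closest to IFI16 (r = 0.9996), a nuclear DNA sensor, then to IFIT3, RSAD2, OASL and OAS2. OAS2 was closest to RSAD2 and OASL to IFIT3, and each had a further pair of OAS genes among its 5 closest. OAS3 was closest to IFIT2 (r = 0.998), with OAS2, RSAD2, PTGS2 (cyclooxygenase-2) and TRIM22 next. Between the members r ranged from 0.995 (OAS1 and OAS3) to 0.9989 (OAS2 and OASL).

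The tested genes nearest to the OAS loci were read beside the family. Those reported lay 45.0 to 523 kb from the OAS1, OAS3 and OAS2 cluster and 113 to 278 kb from OASL. Of 11 neighbours (from the 3 nearest tested genes with a symbol on each side of the cluster and of OASL), 1 was called higher and 2 lower under siRNA.1, and 1 higher and 1 lower under siRNA.2, beside 30.2% and 30.9% of all genes called in either direction. Before the OAS cluster, PTPN11, the phosphatase SHP2, was at −0.39 (edgeR adjusted p = 3.80e-18) and 0.03 (edgeR adjusted p = 0.641). Beyond OAS2, DTX1, at a mean of 0.13 FPKM, was at 0.57 (edgeR adjusted p = 0.598) and 1.44 (edgeR adjusted p = 0.0730), and RASAL1 at −0.04 (edgeR adjusted p = 0.918) and 0.79 (edgeR adjusted p = 0.000111).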

How the data were processed

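The authors captured poly(A)+ RNA, sequenced it on an Illumina instrument, and after FastQC used STAR for alignment to GRCh38 and featureCounts for gene counts. Versions, annotation release and strandedness are not given in the sources used here. The authors deposited raw counts, and FPKM that equalled count over exonic length and library total within 0.005. Every per-library column was used. Libraries were grouped by their titles. Counts were tested with edgeR 4.0.16 (quasi-likelihood, TMM) in R 4.3.3 in 1 fit of the 3 conditions, over genes averaging 0.1 FPKM or more. P-values were adjusted by Benjamini-Hochberg and called under 0.05. Standard errors were derived as |log2 fold change| over the square root of F. Other settings were limma 3.58.1 on log2(FPKM + pseudocount), DESeq2 1.42.0 (the authors' tool), other scalings and filters, and each library left out. Likeness, shares and motifs were computed in Python 3.11.15, and the scripts were tested on simulated data. Named genes were the members, the 2-5A partners and the highest, lowest and called-lower genes of each list. The 5 most alike genes per member and the 3 nearest neighbours on each side were also named. IFNB1, IFNK, IFNL1, IFNL3, STAT2, EIF2AK2, IFIH1, DDX58, DHX58, TLR3 and CGAS were added after their values were seen. Members and lists were chosen with earlier results of these data known. Promoter sequences of OAS2 and OASL and the proteins were not analysed here, and some genes of the lists and neighbourhood are not reported here. Same-condition libraries differed by 2.76 to 4.62 times counting noise (chi-square per degree of freedom), so none was a duplicate.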

Additional observations from a re-analysis of the deposited data

Results flagged for a closer look

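The direct comparison of siRNA.2 with siRNA.1 passed the edgeR test for each of the 4 OAS genes, a call kept under all 20 other settings for OAS1 and lost under 12 of them for OAS3, 6 for OASL and 4 for OAS2. The log2 difference was −0.21 for OAS1, −0.10 for OAS3, −0.15 for OAS2 and −0.18 for OASL, and the siRNA.2 libraries lay below the siRNA.1 libraries in 3 of 3 cases for each gene. ABCE1 differed the other way, by 0.13 on the log2 scale (SE 0.046, edgeR adjusted p = 0.0410), where 6.1% of all tested genes were called higher, with 3 of 3 siRNA.2 libraries above the siRNA.1 libraries, and this call was lost under 12 of 20 other settings.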

How the results depend on the processing

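Against control siRNA, the 4 OAS genes kept direction and call under all 20 other settings, with log2 fold changes of 1.91 to 2.40 for OAS1 and 1.17 to 1.38 for OAS3 over both siRNAs. The direct comparison of the siRNAs called 2604 genes, but 1437, 1414 and 1449 with limma on log2(FPKM + 0.1), + 1 and + 0.01. In that comparison OAS3 lost its call with DESeq2 (−0.11), with limma (−0.11 at each pseudocount), without a filter (−0.095), at a mean of at least 1 FPKM (−0.11) and with 5 of 9 libraries left out in turn (−0.12 to −0.065). OAS2 lost it with limma (−0.16 at each pseudocount) and, left-out libraries giving −0.18 to −0.12, without siRNA.1 replicate 2. OASL lost it with limma at 0.1 and 0.01 (−0.20), and with 4 of 9 libraries left out (−0.20 to −0.17). The cause was not tested. By canonical transcript length, the OAS1 share rose by 10.3 and 9.02 points in place of 4.57 and 3.98, the OAS2 share by 2.85 and 2.90 in place of 5.77 and 5.54, and the OASL share by 0.18 and 0.02 in place of 1.03 and 0.67. The OAS2 share difference between the siRNAs turned from −0.23 to 0.056 points by that length, and left-out libraries gave −0.44 to 0.039, above 0 without siRNA.2 replicate 2. For ABCE1 with siRNA.2, DESeq2, its size factors in edgeR and a mean of at least 1 FPKM gave −0.0093, −0.0092 and −0.0080, the 6 compared libraries alone −0.0056, and left-out libraries −0.030 to 0.032. AKAP7 with siRNA.2 gave −0.0086 with DESeq2, −0.0091 with its size factors and −0.0051 with the 6 libraries alone, and −0.16 to 0.15 with libraries left out (−0.10 to 0.20 with siRNA.1). Replicate numbers did not pair the libraries: same-numbered libraries correlated at −0.073 to 0.040 in their deviations from condition means. With a replicate block the counts were 6214, 6356 and 2340 against 6471, 6614 and 2604, OAS3 was −0.10 between the siRNAs and no longer called (edgeR adjusted p = 0.0753), and ABCE1 was −0.00017 with siRNA.2. Over the partner and list genes for which the other settings were run, 863 values kept direction and call, 51 lost a call and 5 gained one. A further 17 changed sign, all for ABCE1 and AKAP7.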
